A study of Pimephales promelas with 191 samples.

Results

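In the liver of the adult male fathead minnow (Pimephales promelas), a small freshwater fish used in aquatic toxicology, 100 genes stood near 0 in most RNA libraries and reached a high level in a few. Levels are given as CPM, the deposited count of a gene divided by the total of its library and multiplied by 1000000. Of 26150 genes, 11160 had an 80th percentile below 1 CPM over all libraries, and the 100 of these with the highest single CPM value were taken. The genes were thus chosen by their maximum and their 80th percentile, and these high maxima and low levels elsewhere are described without a test. The last genes inside the limit of 100 were FMg005812, with a maximum of 37.5 CPM, and FMg020996, with 37.4 CPM. The genes just outside were FMg002682, at 37.2 CPM, and FMg010601, at 35.7 CPM.

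The libraries came from control fish and from fish exposed to metformin at 41 µg/L, to guanylurea at 100 µg/L, or to a mixture of both compounds. The 4 collection times were 6, 24, 48 and 96 h of exposure. This gives 16 groups of 12 libraries, except guanylurea at 24 h, which has 11. The labels number the libraries within a group without saying that each is another fish or tank. A p-value here therefore reflects only how far the libraries differ from each other, and part of that spread may be technical. Library totals ran from 12.7 to 27.97 M counts (M, mega) with a median of 19.5 M. A count of 0 allowed a level of up to 0.107 CPM in the deepest library and 0.237 CPM in the shallowest, on counting error alone.

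Metformin, a biguanide, is taken by people with type II diabetes and passes into sewage, where bacteria turn it into guanylurea. Bulk RNA of a dissected organ holds the transcripts of every cell type in the piece, including blood, vessels and any neighbouring tissue taken with it. In many bony fishes exocrine pancreas lies close to or within the liver, and the gut, gonad and fat lie next to it. In such RNA, more cells of a type and more RNA per cell cannot be told apart. The identifiers were not paired with gene names, and 0 of them matched the RefSeq table of the organism, so no function is given to any gene and the liver label was not checked against marker genes.

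A burst is defined as a level of at least 10 CPM of 1 of the 100 genes in 1 library. There were 523 bursts, 2.74% of the 19100 values, and 37.2% of the values were counts of 0. Bursts occurred in 117 libraries, while 74 libraries had none. The median library had 1 burst, 42 libraries had 5 or more and 9 had 10 or more. The bursts are concentrated: 20 libraries held 51.1% of them. The largest number, 44 bursts, was in the guanylurea 24 h library numbered 10. The control 96 h library numbered 2 had 42 bursts. These 2 libraries together held 16.4% of all bursts. They were followed by control 6 h number 3 with 18 bursts, metformin 96 h number 9 with 15, guanylurea 96 h number 8 with 14 and guanylurea 48 h number 7 with 13. These 6 libraries held 25.6, 17.9, 15.1, 17.7, 23.0 and 20.2 M counts in this order, against a median of 19.5 M. Whether depth bears on the bursts was not tested.

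The highest value of each gene fell in 1 of 28 libraries, and in control 96 h number 2 for 38 of the 100 genes. The maxima ran from 37.4 to 1208 CPM with a median of 78.0 CPM, and 40 genes reached 100 CPM. For 72 genes the highest library was at least 2 times as high as the next. A single burst was seen for 15 genes, 2 to 5 bursts for 61 and more than 5 for 24. The median level over the libraries was 0 for 35 genes. The lowest count behind any of the 100 maxima was 670. A high count behind each maximum largely follows from the choice of the genes by their maxima.

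**Figure D1:**
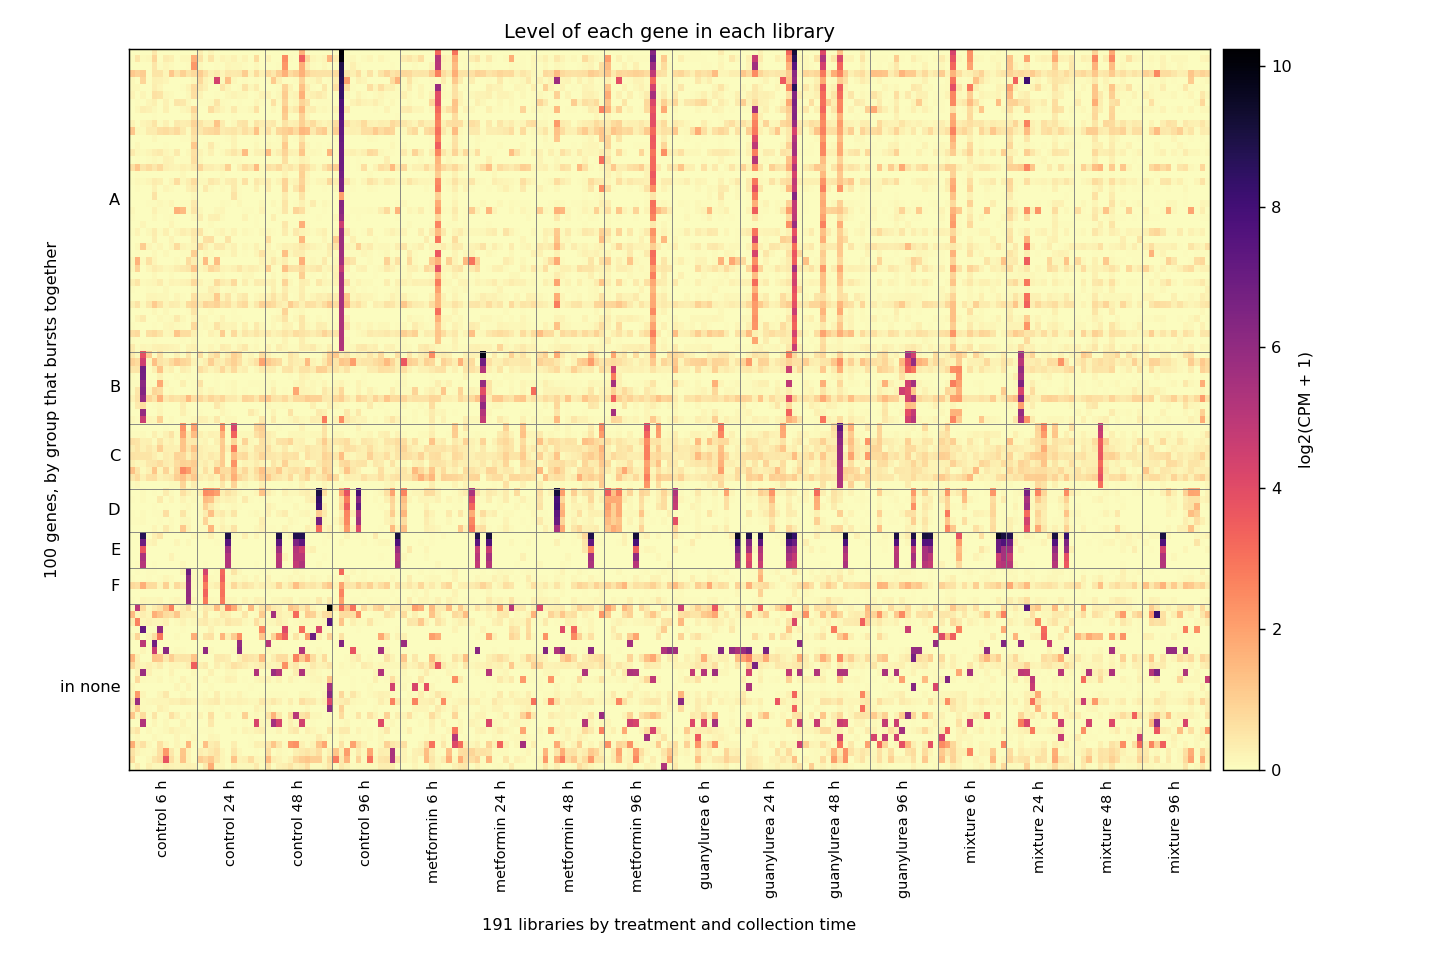
Level of each of the 100 genes (rows, by group of genes that burst together) in each library (columns, by treatment and collection time), as log2(CPM + 1) on the colour scale. Most of the field is near 0, and 2 columns, control 96 h number 2 and guanylurea 24 h number 10, are high over most of the 42 rows of group A.

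Many of the genes burst in the same libraries. Likeness between genes was measured as the Pearson correlation of log2(CPM + 1) over all libraries, which all genes share, and is given as a description. Of the 4950 pairs of the 100 genes, 19.8% had a correlation of at least 0.5 and 12.1% of at least 0.8. Over all pairs of the 10674 genes with a count and an 80th percentile below 1 CPM, these shares were 0.921% and 0.160%. The rule chose the 100 genes by their highest values, and such values weigh heavily in this correlation. The difference in shares therefore partly follows from the choice and is not a test. Average-linkage clustering on 1 minus the correlation, cut at a distance of 0.5, placed 77 genes in 6 groups of at least 5 genes, named A to F here, and left 23 in none. The median correlation was 0.83 within a group and 0.02 between the other pairs. A library in which both genes burst existed for 99.5% of the pairs within a group and for 15.5% of the other pairs. Since the groups were cut from these same levels, their coherence is a description. The rank-based Spearman correlation, to which a few high libraries contribute little, placed only 12 genes in groups, 6 of group A and the 6 of group D.

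Group A, with 42 genes, was the largest. Its leading gene, FMg017004, also had the highest level of all 100. FMg017004 stood at 1208 CPM (21618 counts) in control 96 h number 2, at 567 CPM in guanylurea 24 h number 10, at 75.6 CPM in metformin 96 h number 9, at 18.8 CPM in mixture 6 h number 3 and at 16.2 CPM in guanylurea 48 h number 4. Its median was 0 in each of the 16 groups, and its count was 0 in 168 libraries. In the control 96 h group the other 11 libraries had a count of 0. In guanylurea at 24 h 8 of 11 libraries had a count of 0. FMg023450, of the same group, stood at 1044 CPM in control 96 h number 2, 394 CPM in guanylurea 24 h number 10 and 118 CPM in metformin 96 h number 9. The order of these 3 libraries was the same for both genes.

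Summed over its 42 genes, group A had a median of 6.35 CPM per library. The sum was 7036 CPM in control 96 h number 2 with 41 of 42 genes bursting. It was 2809.6 CPM in guanylurea 24 h number 10, with 38 bursting, and 562 CPM in metformin 96 h number 9, with 13 bursting. Guanylurea 24 h number 3 had 365 CPM with 10 bursting, and metformin 6 h number 7 had 304 CPM with 7 bursting. Mixture 24 h number 4 had 345 CPM with only 2 bursting and 15 of the 42 genes at 1 CPM or more. The sums of the other libraries of these groups were far lower. In control at 96 h the lowest was 3.27 CPM, the median 6.13 and the second highest 11.3, against 7036 CPM for number 2. In guanylurea at 24 h the lowest was 4.53 CPM, the median 6.93 and the second highest 365, against 2809.6 CPM for number 10. In metformin at 96 h the lowest was 3.25 CPM, the median 7.10 and the second highest 27.5, against 562 CPM for number 9. The group medians of all 16 groups lay between 5.18 CPM (mixture at 96 h) and 7.70 CPM (guanylurea at 48 h).

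The genes of group A kept a similar order of levels in some libraries and not in others. Of the 41 genes that burst in control 96 h number 2, 37 also burst in guanylurea 24 h number 10, where 38 did so, and the 13 that burst in metformin 96 h number 9 burst in both. Over the 42 genes, log2(CPM + 1) in control 96 h number 2 had a correlation of 0.91 with metformin 96 h number 9 and of 0.67 with guanylurea 24 h number 10. The level was higher in control 96 h number 2 for 42 of 42 genes in the first comparison, by a median of 3.79 on the log2 scale. It was higher for 38 of 42 genes in the second, by a median of 1.53. The correlation was 0.73 with guanylurea 48 h number 4, but 0.06 with guanylurea 24 h number 3 and 0.08 with mixture 24 h number 4. In both of these last libraries FMg017004 had a count of 0. The ratios between the genes of group A were therefore alike in some of the libraries that held them and unlike in others. Whether tissue other than liver was present was not tested, because no marker gene could be matched by name.

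**Figure D2:**
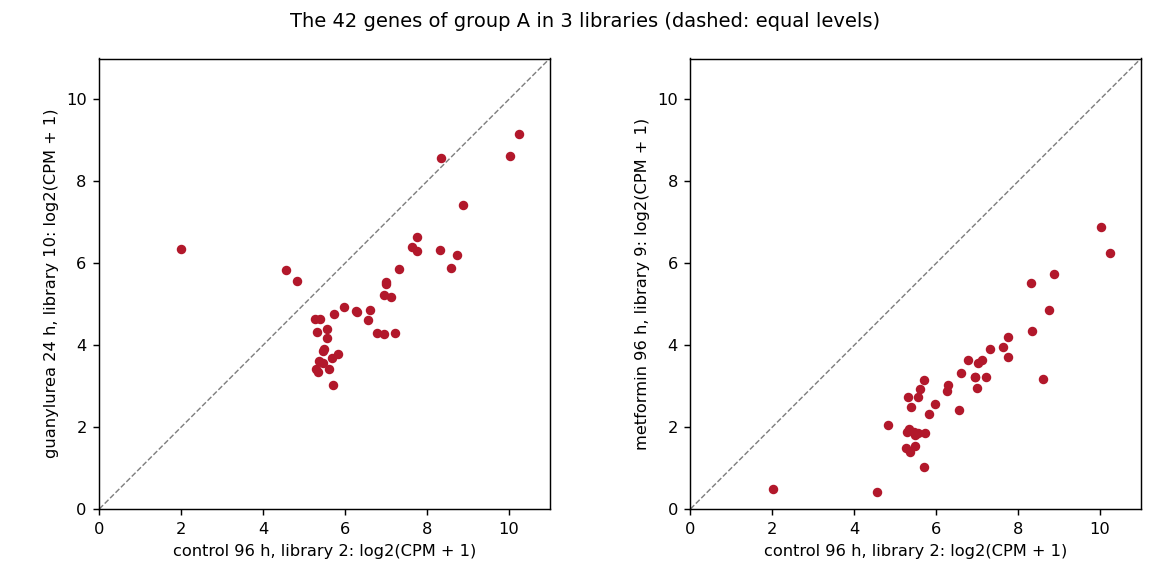
Levels of the 42 genes of group A, as log2(CPM + 1), in control 96 h number 2 (horizontal axis) against guanylurea 24 h number 10 and metformin 96 h number 9 (vertical axes), with 1 point per gene and a dashed line at equal levels. All 42 points lie below the line for metformin 96 h number 9 and 38 of 42 for guanylurea 24 h number 10.

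Group A did not rest wholly on its highest library. The median correlation within the group was 0.83, and 0.76 without control 96 h number 2 and 0.64 without guanylurea 24 h number 10 as well. All 42 genes were again placed in 1 group without control 96 h number 2. Without the 5 libraries with the most bursts, 30 of the 42 stayed together. The nearest genes outside the 100 were FMg022048 and FMg001493, each with a correlation of 0.96 with the mean of the group, and 68 of 25564 genes outside had at least 0.8. The maxima of those 2 genes, 24.6 and 18.3 CPM, were also in control 96 h number 2, below the level needed to enter the 100.

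Group B held 10 genes. Its leading gene, FMg025229, reached 912 CPM in metformin 24 h number 3. The next values of FMg025229 were 46.5 CPM in mixture 24 h number 3, 42.5 CPM in guanylurea 96 h number 7, 20.8 CPM in guanylurea 96 h number 8 and 13.4 CPM in control 6 h number 3. The summed level of group B was 1294 CPM in metformin 24 h number 3, 551 CPM in control 6 h number 3 and 471 CPM in mixture 24 h number 3, against a median of 2.21 CPM. In each of these 3 libraries 9 of 10 genes burst. They come from 3 treatment groups, with 2 libraries at 24 h and 1 at 6 h, and all are numbered 3 in the labels, which do not say what the number stands for. Libraries numbered 3 held 27 of the 48 bursts of group B, all of them in these 3 libraries, so this count only restates them. Guanylurea 96 h number 8 with 237 CPM, and number 7 with 157 CPM, followed. The levels of the 10 genes were alike in control 6 h number 3 and mixture 24 h number 3, with a correlation of 0.79. Metformin 24 h number 3 was unlike those libraries, with correlations of -0.48 and -0.04. Its correlation was 0.70 with guanylurea 96 h number 7 and 0.58 with guanylurea 96 h number 8. With the next libraries it ran from -0.23 (guanylurea 96 h number 6) to 0.35 (guanylurea 24 h number 9). The nearest genes outside were FMg017121, at a correlation of 0.90, and FMg011183, at 0.88, and 11 genes outside had at least 0.8.

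Group C held 9 genes led by FMg001172, which stood at 170.0 CPM in guanylurea 48 h number 7, 27.99 CPM in mixture 48 h number 5, 18.2 CPM in control 24 h number 7 and 14.6 CPM in metformin 96 h number 8. All 9 genes burst in guanylurea 48 h number 7 and 7 of 9 in mixture 48 h number 5, with summed levels of 606 and 125 CPM against a median of 2.49 CPM. The 9 genes had a correlation of 0.84 between these libraries and 0.88 between guanylurea 48 h number 7 and metformin 96 h number 8. With the next libraries it ran from 0.45 (control 6 h number 10) to 0.86 (mixture 24 h number 7), with 0.75 for control 24 h number 7. The median correlation within the group was 0.78. It was 0.62 without guanylurea 48 h number 7, and 0.47 without mixture 48 h number 5 as well. Guanylurea 48 h number 7 was also the library with the most genes detected, 22376, where the range was 18905 to 22376. Group C had by far the most followers among the genes outside the 100, with 316 at a correlation of at least 0.8. The nearest were FMg002005 and FMg013900, both at 0.97. The median of the maxima of these 316 genes was 5.15 CPM, below the limit of the 100.

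The leading genes of groups D and F were named after their values were seen. Group D held 6 genes led by FMg018246, at 564 CPM in metformin 48 h number 4, 507 CPM in control 48 h number 10 and 246 CPM in control 96 h number 5. Summed, group D stood at 1380.2, 1247 and 581 CPM in these libraries and at 234 CPM in mixture 24 h number 4, against a median of 0.482 CPM. Group F held 5 genes led by FMg010204, at 130.01 CPM in control 6 h number 11, 19.4 CPM in control 24 h number 2, 8.70 CPM in control 24 h number 5 and 8.21 CPM in control 96 h number 2. The 4 highest summed levels of group F, 379.9, 51.6, 38.4 and 19.3 CPM, were all in control libraries, in the same order. The next was 5.27 CPM, in guanylurea 24 h number 4. The 7 bursts of group F were confined to 2 control libraries, with 5 in control 6 h number 11 and 2 in control 24 h number 2.

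**Figure D3:**
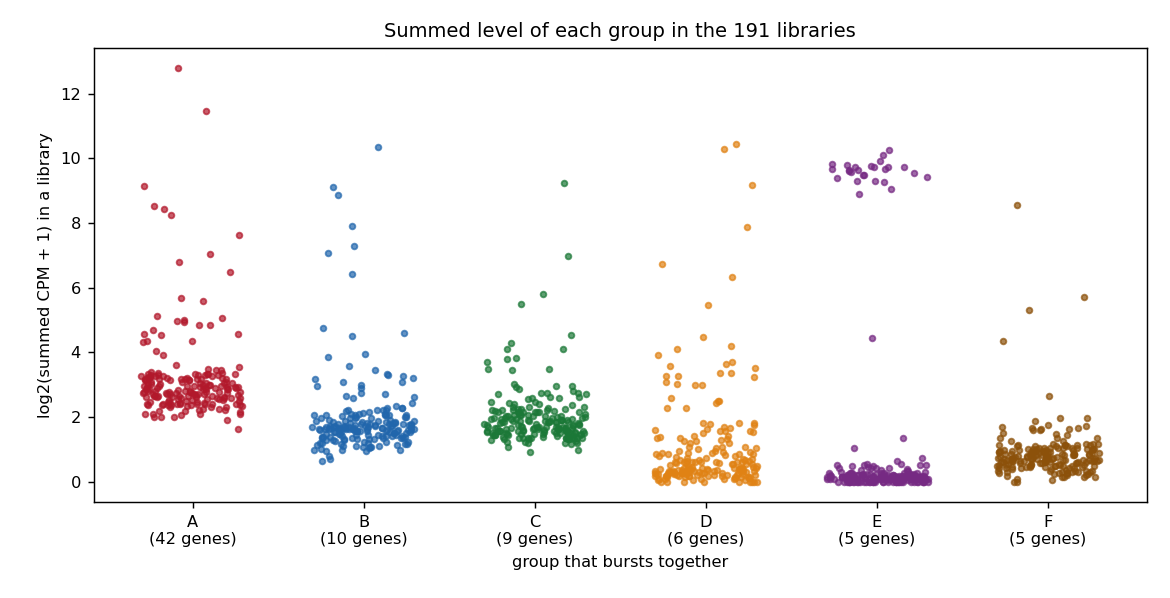
Summed level of each group of genes that burst together, as log2(summed CPM + 1), with 1 point per library and 6 groups on the horizontal axis. Groups A to D and F trail upward to single high libraries, while group E splits into 26 libraries at 480.0 CPM or more and the others at 20.6 CPM or less.

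Group E behaved differently from the others in that its 5 genes were either high or near 0. The genes are FMg023573, FMg023072, FMg018730, FMg024111 and FMg023876, named after their values were seen. In 26 libraries all 5 were at 1 CPM or more, and their summed level ran from 480.0 to 1218 CPM with a median of 797 CPM. In the other 165 libraries the median sum was 0.101 CPM and the highest 20.6 CPM. FMg023573 ran from 309 to 803 CPM in the 26 libraries, and its count was 0 in 91 of the 164 libraries below 1 CPM. The correlations between these genes had a median of 0.99. The value of 20.6 CPM was in mixture 6 h number 4, which stood between the states for all 5 genes, at 1.85% to 5.45% of the median of the libraries where each gene was high. FMg009728, a gene outside group E, stood there at 6.94% of its own high median. For FMg023573, no other library lay between 0.783 and 309 CPM.

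Libraries with group E high were found in 14 of the 16 groups, the exceptions being metformin at 6 h and the mixture at 48 h. They numbered 6 of 48 control libraries (12.5%), 4 of 48 with metformin (8.33%), 10 of 47 with guanylurea (21.3%) and 6 of 48 with the mixture (12.5%). By collection time, the 6 h libraries included 4 of 48, those of 24 h 10 of 47, those of 48 h 5 of 48 and those of 96 h 7 of 48. Within groups the count was 4 in guanylurea at 24 h and at 96 h, 3 in control at 48 h, and from 0 to 3 elsewhere.

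In all, 11 of the 100 genes had this on-or-off form, defined after the data were seen as at least 5 libraries at 1 CPM or more, of which at least 80% were at 10 CPM or more. Besides group E these were FMg021651, high in 29 libraries, FMg009728 in 31, FMg009727 in 30, FMg001617 in 12, FMg011898 in 10 and FMg011547 in 8. FMg021651 ran from 12.2 to 110.4 CPM where it was high and never exceeded 0.210 CPM elsewhere. FMg001617 ran from 26.7 to 111.5 CPM where it was high, and its count was 0 in 178 of the other 179 libraries. FMg009727 and FMg009728 were high together in 30 libraries. FMg021651 shared 7 of its 29 libraries with group E, and FMg009728 shared 9 of its 31. These 11 genes made 246 of the 523 bursts, or 47.0%. The remaining 89 genes made 277 bursts in 63 libraries, of which 28.9% lay in guanylurea 24 h number 10 and control 96 h number 2.

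**Figure D4:**
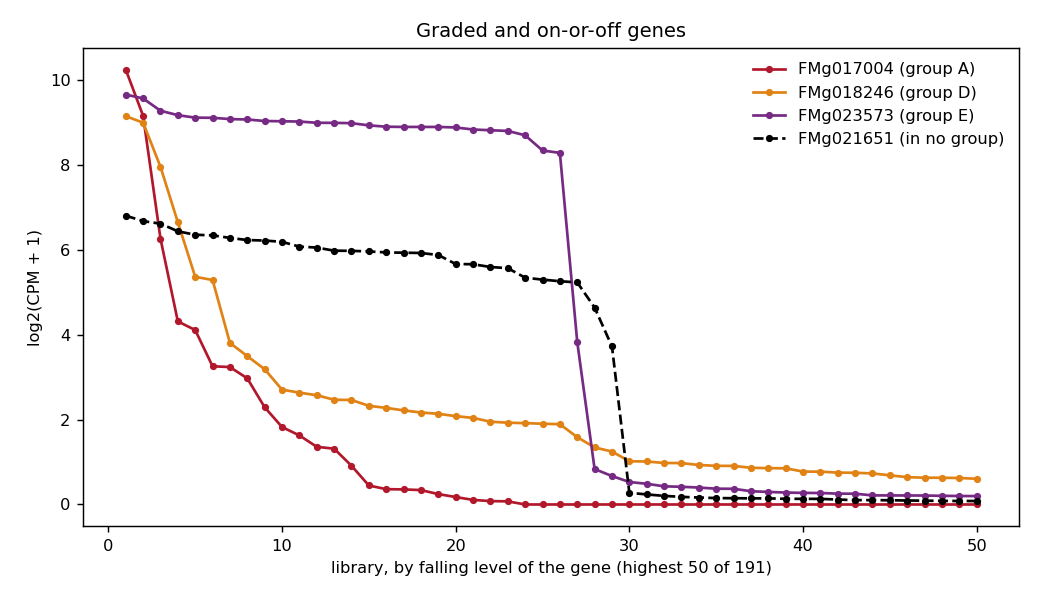
Level of selected genes, as log2(CPM + 1), in their highest 50 libraries, ordered from high to low for each gene. The on-or-off genes hold a high level over many libraries and then drop to near 0, whereas FMg017004 falls from 1208 CPM to 16.2 CPM within 5 libraries.

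Among the 23 genes in no group was FMg007216, which had the second highest maximum of the 100. FMg007216 reached 1176 CPM (20637 counts) in control 48 h number 12, then 169 CPM in mixture 24 h number 4, 33.1 CPM in metformin 24 h number 8, 30.6 CPM in control 6 h number 2 and 23.5 CPM in guanylurea 6 h number 2. FMg007216 burst in 1 of the 12 control 48 h libraries, where its lowest level was 0.0358 CPM and its median 0.336 CPM. Its median was below 1 CPM in all 16 groups, from 0.135 to 0.568 CPM.

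Among the 100, the few genes whose identifiers carry consecutive numbers burst alike. There were 6 such pairs among the 100 genes, and their correlations ran from 0.90 to 0.98; 5 of the 6 pairs shared the library of the maximum. They include FMg009727 with FMg009728, and FMg020488, FMg020489 and FMg020490, all 3 highest in control 48 h number 12. A correlation of at least 0.8 was seen for 12.1% of all pairs of the 100 genes. Among 5261 consecutive pairs of genes with an 80th percentile below 1 CPM, 1.46% had a correlation of at least 0.8, and the median was 0.04. Over all pairs of such genes the share was 0.160%. What the numbering follows is not given in the sources used here. Whether neighbours in number share sequence was not tested.

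The burst genes were not the only ones raised in the libraries where they burst. A gene was counted as raised where it was at 10 CPM or more and at least 10 times its median. Control 96 h number 2 had 225 raised genes, of which 183 were not among the 100. Guanylurea 48 h number 7 had 212, of which 199 were not. Guanylurea 24 h number 10 had 115, of which 71 were not. The median library had 20 raised genes outside the 100, and the 95th percentile was 57. A library could also have many raised genes with few of these bursts, as in mixture 96 h number 3, where 168 of 172 raised genes were not among the 100. Whether the bursts and the other raised genes share a source was not tested.

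Bursts were counted by treatment and time. Control libraries had 145 bursts, guanylurea 188, metformin 95 and the mixture 95. Per library this is 3.02 ± 6.59 (SD, n = 48) in controls, 4 ± 7.03 (SD, n = 47) with guanylurea, 1.98 ± 3.13 (SD, n = 48) with metformin and 1.98 ± 2.67 (SD, n = 48) with the mixture. The median was 2 with guanylurea and 1 in each other treatment, and the SDs exceed the differences. Without the 5 libraries of most bursts, the numbers were 85, 130, 80 and 95 in the same order. Per remaining library this is 1.85, 2.89, 1.70 and 1.98, so controls then had fewer bursts than the mixture, and guanylurea still had the most. Genes that burst together add several bursts from 1 library to these numbers. By time, the 6 h libraries had 90 bursts, those of 24 h had 170, those of 48 h had 98 and those of 96 h had 165. Without the 5 libraries these numbers were 72, 126, 98 and 94. The 5 libraries are unevenly spread over the times. Per remaining library the numbers are 1.53, 2.74, 2.04 and 2.09. Over the 16 groups, the median number per library was highest with guanylurea at 24 h, at 4 (range 0 to 44), and at 96 h, at 3 (range 0 to 14). A library with a burst was seen in 10 of 11 and in 10 of 12 libraries of these groups, and in 4 of 12 for guanylurea at 48 h. Of the 188 bursts with guanylurea, 90 came from the 11 on-or-off genes. These genes gave 56 of 145 bursts in controls, 40 of 95 with metformin and 60 of 95 with the mixture. Leaving these 11 genes out, 19 of 48 control libraries and 16 of 47 guanylurea libraries had a burst. With metformin 17 of 48 libraries had 1 or more such bursts, and with the mixture 11 of 48. Guanylurea then did not have the most libraries with a burst.

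**Figure D5:**
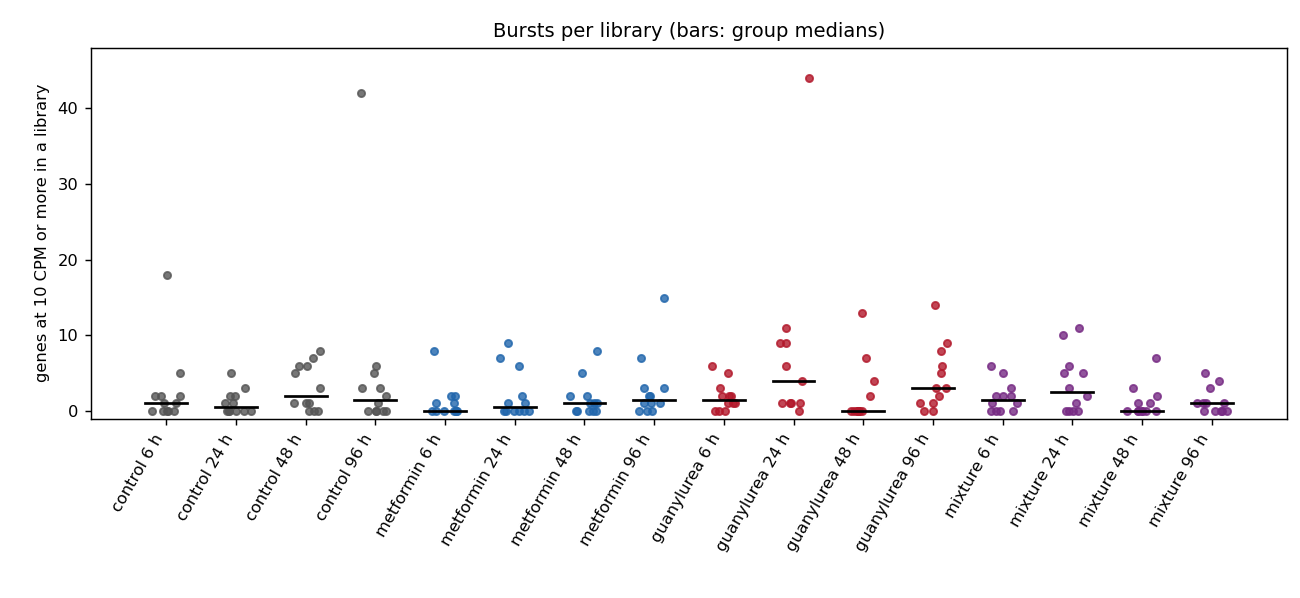
Number of the 100 genes at 10 CPM or more in each library (points) for the 16 groups of treatment and collection time, with bars at the group medians. Guanylurea 24 h number 10, at 44, and control 96 h number 2, at 42, stand far above the other libraries, and all groups overlap.

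The treatments were then compared with edgeR's quasi-likelihood test in a single model of all libraries that gives each of the 16 groups its own mean, with Benjamini-Hochberg adjustment over 21867 genes with a total count of at least 100. All 100 genes passed that filter. A gene was called at an adjusted p under 0.05. Since a high value in 1 library raises the mean of its group, and such values chose the genes, the calls describe the same bursts in another form. They are given beside the percentage of all tested genes that was called. All treatment contrasts use the same controls.

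For metformin against control averaged over times, 6 of the 100 genes were called, 1 higher and 5 lower, where 0.128% of all genes were called (0.032% higher and 0.096% lower). For guanylurea, 10 were called, 3 higher and 7 lower, where 1.28% of all genes were called (0.284% higher and 0.992% lower). For the mixture, 7 were called, 3 higher and 4 lower, where 0.137% of all genes were called (0.0412% higher and 0.096% lower). For any difference among treatments, 19 were called against 1.31% of all genes. For any difference among collection times the count was 47 against 31.3%, and for any difference among the 16 groups it was 95 against 24.3%. No gene of group A was called in any of the 3 treatment contrasts averaged over times. Its 2 highest libraries, a control and a guanylurea library, lie on opposite sides of the guanylurea contrast. Only the control library of these enters the metformin and mixture contrasts. Why no gene of group A was called was not tested. Among the 16 groups all 42 genes of group A were called, and 11 among collection times. Group F, whose 4 highest libraries were controls although its median was below 1 CPM in each control group, gave 4 of the calls for metformin, 3 for guanylurea and 3 for the mixture. Group E had 0 of 5 genes called by edgeR in each of the 3 treatment contrasts and 1 of 5 for any difference among treatments. It had 5 of 5 called among collection times (adjusted p from 0.00235 to 0.0188, edgeR) and 2 of 5 among the 16 groups. The 5 genes were high in the same 26 libraries, so these calls repeat 1 pattern and are not 5 separate results. Those libraries included 4 of 48 at 6 h and 10 of 47 at 24 h. At 48 h they included 5 of 48, and at 96 h 7 of 48. None were in metformin at 6 h or in the mixture at 48 h.

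The calls depended on the tool. With limma voom and quality weights, which gives aberrant libraries less weight, 0 of the 100 genes were called for metformin, guanylurea or the mixture, where 0.00457%, 1.34% and 0% of all genes were called. By that tool 2, 8 and 3 of the 100 had an unadjusted p under 0.05, against 2506, 3049 and 1133 of all 21867 genes. Among the 16 groups limma voom called 0 of the 100, against 95 with edgeR, where 13.7% of all genes were called, and 5 of the 100 had an unadjusted p under 0.05. Among collection times it called 6 of the 100, where 28.5% of all genes were called. With DESeq2 the counts for metformin, guanylurea and the mixture were 1, 7 and 1, where 0.142%, 1.42% and 0.0686% of all genes were called. With limma trend, fitted without quality weights, they were 0, 0 and 0, where 0%, 0.526% and 0% of all genes were called.

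The gene of smallest p among those lower was FMg018274, of group F. FMg018274 stood at 57.4 CPM in control 6 h number 11, 6.24 CPM in control 24 h number 2, 5.98 CPM in control 24 h number 5 and 3.13 CPM in control 96 h number 2, and below 1 CPM in every other library. It was lower with guanylurea by a log2 difference of -3.29 (adjusted p = 6.88e-08, edgeR). Over the alternatives this adjusted p ran from 5.7e-08 to 0.131, and it was 0.0591 with DESeq2. FMg003659, of the same group, was led by control 6 h number 11 as well, at 69.8 CPM, and was lower with the mixture by -2.80 (adjusted p = 0.000656, edgeR; 0.000647 to 0.999 over the alternatives). Both genes were high in control 6 h number 11 and at lower levels in 2 control 24 h libraries.

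In the other direction, FMg002315 was higher with the mixture by 4.34 on the log2 scale (adjusted p = 2.5e-06, edgeR; 1.48e-06 to 0.999 over the alternatives). FMg002315 was highest in mixture 6 h number 2 at 87.5 CPM, mixture 24 h number 5 at 30.3 CPM, metformin 96 h number 9 at 28.7 CPM and mixture 96 h number 12 at 25.9 CPM. The 8 highest libraries were all of the mixture or of metformin, the last at 3.51 CPM, while control libraries reached 1.25 CPM and guanylurea libraries 2.95 CPM. Its median was below 0.1 CPM in every group, so the libraries of all treatments overlapped. FMg023132 was higher with the mixture by 2.63 (adjusted p = 0.0027, edgeR; 0.00266 to 0.999 over the alternatives), although its highest level, 47.5 CPM, was in guanylurea 96 h number 6. With DESeq2 the adjusted p was 0.999 for FMg002315 and 0.132 for FMg023132. Mixture 6 h number 2, mixture 24 h number 5 and mixture 48 h number 2 were among the 8 highest libraries of both genes. So were metformin 96 h number 9 and metformin 6 h number 10, but metformin groups have no weight in the contrast of the mixture with control. How far the calls of the 2 genes rest on the shared mixture libraries was not tested.

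The same contrasts were fitted with edgeR within 24 h and within 96 h, with and without 1 library. These fits were added after the libraries were seen to stand apart. At 24 h, guanylurea against control called 35 of the 100 genes, 34 of them higher and 32 of them of group A, where 0.361% of all genes were called (0.279% higher and 0.0823% lower). The 100 genes made up 44.3% of all 79 calls. Without guanylurea 24 h number 10, 3 of the 100 were called, of 5 genes in all. At 96 h, guanylurea against control called 63 genes, 11 higher and 52 lower, with all 42 of group A lower, where 3.53% of all genes were called (0.892% higher and 2.63% lower). Without control 96 h number 2, 15 of the 100 were called, of 234 genes in all. The mixture at 96 h called 43 of the 100, 42 of them lower, where 0.837% of all genes were called (0.0732% higher and 0.764% lower). Without control 96 h number 2, edgeR called 0 genes of all, and 1926 genes had an unadjusted p under 0.05. Metformin at 96 h called 0 of the 100, where 0.0183% of all genes were called. Of the 100, 64 had an unadjusted p under 0.05, as had 2111 of all 21862 genes. Without control 96 h number 2, 6 of the 100 were called, all higher, of 12 genes in all. Metformin 96 h number 9 was the library of that group with group A at 562 CPM. Whether these 6 calls rest on that library was not tested, as no 96 h fit left it out. For the mixture at 24 h, 4 of the 100 were called, 2 higher and 2 lower, where 0.032% of all genes were called (0.0137% higher and 0.0183% lower). The count was 1, of 2 genes in all, without guanylurea 24 h number 10. For metformin at 24 h, 0 of the 100 were called by edgeR, as were 0 of all genes, and 22 of the 100 had an unadjusted p under 0.05, against 1695 of all 21865 genes.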

How the data were processed

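The authors deposited expected counts, estimated per gene by RSEM 1.3.1 with Bowtie2 2.3.5 after bcl2fastq 1.8.4, per the submitters' processing notes; all values are whole numbers. No genome build or annotation is named in the sources used here. Per the labels' protocols, Tri-Reagent was used for extraction and a TruSeq stranded kit for mRNA libraries. CPM used the column totals. Bursts, groups and correlations were computed in Python 3.11.15 with scipy 1.17.1. Tests used edgeR 4.0.16 (TMM scaling, robust quasi-likelihood fit, 16 group means, total count of at least 100) in R 4.3.3, with Benjamini-Hochberg adjustment. DESeq2 1.42.0 and limma 3.58.1 were alternatives, among others given in the closing section. The fits were tested on simulated data, where edgeR called unchanged genes more often than limma did.

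The members and lists were chosen with earlier results of these data known. Printed identifiers are the 4 genes with the highest maximum, the leading gene of each of the 3 largest groups, the genes on either side of rank 100, the 2 called genes of smallest p in each direction over the treatment contrasts, and the 2 nearest genes outside for those 3 groups. Others were named after their values were seen. Intervals and zero-count limits cover counting error only.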

Additional observations from a re-analysis of the deposited data

How the results depend on the processing

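Of the 100 genes, 63 were chosen again without the 5 libraries of most bursts, and 12 were placed in groups with Spearman correlation in place of Pearson, against 77. The counts of called genes moved by over 1.5 times as follows, in the order metformin, guanylurea and mixture against control averaged over times (6, 10 and 7 with edgeR). With filterByExpr, which 77 of the 100 passed, they were 3, 6 and 3, where 0.0882%, 1.3% and 0.0386% of all genes were called. With limma voom or limma trend they were 0, 0 and 0, with 0 for any difference among treatments or among the 16 groups. For the last 2 comparisons, limma voom called 1.35% and 13.7% of all genes, and limma trend 0.229% and 13%. For collection times, limma voom called 6 and limma trend 4, where 28.5% and 28.2% of all genes were called. DESeq2 called 1 with metformin, 1 with the mixture and 4 for any treatment difference. The shares of all genes called were 0.142%, 0.0686% and 1.14%. With adjusted p under 0.10 metformin had 12, where 0.457% of all genes were called. Without control 96 h number 2, guanylurea had 17, where 1.34% of all genes were called. Of these 17, 12 were higher and 5 lower, against 3 higher and 7 lower with all libraries. The replicate number as a block gave 0, 6 and 0, where 0%, 1.05% and 0% of all genes were called. It gave 8 for treatments and 26 for times, where 0.942% and 30.5% of all genes were called. Over all tested genes, same-numbered libraries had a mean correlation of deviations of 0.0167 over 1425 pairs, with 25.9% above 0.1. For the 15675 other pairs the mean was -0.00116, and the share above 0.1 was not computed. The numbers were not taken to pair libraries in the main fit, and the labels do not say what they stand for. In the fits of 24 h alone, without guanylurea 24 h number 10, guanylurea had 3 and the mixture 1. There 0.0229% and 0.00915% of all genes were called. In the fits of 96 h alone, without control 96 h number 2, metformin had 6, guanylurea 15 and the mixture 0. There 0.0549%, 1.07% and 0% of all genes were called. The other 74 values stayed within 1.5 times. The cause of these moves was not tested. The transcript table was not run as an alternative, since its identifiers do not tie transcripts to genes.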
